A study of Mus musculus with 12 samples.

Results

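The interaction of genotype and THC asks, for each gene, whether delta-9-tetrahydrocannabinol (THC), the compound of cannabis behind most of its effects on the mind, shifts its RNA level differently in mutant and in control mice. It is the difference of 2 differences on the log2 scale: mutant THC minus mutant vehicle, less control THC minus control vehicle. A negative value means that the THC effect was lower in the mutant than in the control mice, and a positive value that it was higher. All 23382 rows of the deposited table belong to it, and 15802 of them passed a filter on low counts and were tested. Hippocampal total RNA was measured in 12 libraries, in 4 groups of 3: control mice given vehicle, control mice given THC, mutant mice given vehicle and mutant mice given THC, all on a C57BL/6 background. The mutant genotype is labelled aDN-DISC1, the control genotype is known from the sample titles alone, and the series title places the exposure in adolescence and the genetic vulnerability in astrocytes. Promoter or driver of the mutant allele, dose, age at collection and sex are not given in the sources used here. Nothing states that the 3 libraries of a group came from separate mice. The p-values therefore cover the scatter among these libraries, which may be technical.

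THC acts on the cannabinoid receptor CB1, encoded by Cnr1, which sits on hippocampal neurons and, at lower density, on astrocytes. DISC1 holds signalling proteins together inside cells, and its disruption runs with mental illness in a large family. The series title names NF-kB, a family of transcription factors that switch on inflammatory genes, and COX-2, the inducible prostaglandin synthase encoded by Ptgs2. Complement, a cascade of plasma proteins that also tags synapses, and antigen presentation by the major histocompatibility complex (MHC) are 2 other immune systems that glia and border cells of the brain can express.

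Total expected counts were 33165903 to 41389957 per library. The defining markers of hippocampal neurons and of astrocytes were present in every library. Several libraries stood apart in markers of neighbouring tissue. Ttr, the main product of the choroid plexus, was at 2857 to 9979 CPM (counts per 1000000 counts) in the 3 mutant vehicle libraries, control THC 2, mutant THC 1 and mutant THC 3, and at 20.1 to 84.4 CPM in the other 6. Striatal markers were high in mutant THC 3, with Drd2, a dopamine receptor, at 51.9 CPM, and the mean log2 CPM of the striatal list was 6.99 there, 4.14 in mutant vehicle 3 and 2.02 to 2.44 in the other 10 libraries. In bulk RNA, fewer cells of a type and less RNA per cell cannot be told apart. Library numbers 6 to 11 were vehicle and 1 to 5 and 12 were THC, so library number and treatment largely ran together. What order the numbers stand for is not stated in the sources used here.

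No gene passed the test for interaction. The quasi-likelihood test of edgeR called 0 of 15802 genes (0%) at a Benjamini-Hochberg adjusted p under 0.05, and the smallest adjusted p was 0.48. At an unadjusted p under 0.05 there were 1041 genes (6.59%), of which 699 (4.42%) were negative and 342 (2.16%) positive, although 48.7% of all values lay below 0. DESeq2 called 34 genes, 33 of them negative, and limma-voom called 0. The standard error (SE) of the interaction had a median of 0.16 on the log2 scale, against 0.11 for the THC effect within a genotype. Within each genotype edgeR also called 0 genes for THC, with 1106 (7%) at an unadjusted p under 0.05 in the control and 906 (5.73%) in the mutant mice. Of the libraries left out singly, only mutant THC 1 changed the edgeR count: without it, edgeR called 10 genes for interaction, all negative. They were Ddr2, Cped1, Slc12a7, Adamts12, Ston1, Emilin1, Slc6a20a, Cp, Flnc and Car13, and DESeq2 on all libraries called 6 of these 10. The positive count at an unadjusted p under 0.05 also moved with single libraries, to 211, 226 and 224 without control vehicle 3, control THC 3 and mutant vehicle 3, and to 607, 634 and 661 without control THC 1, mutant THC 2 and mutant THC 1. The negative count went to 1180 without mutant THC 1.

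**Figure D1:**
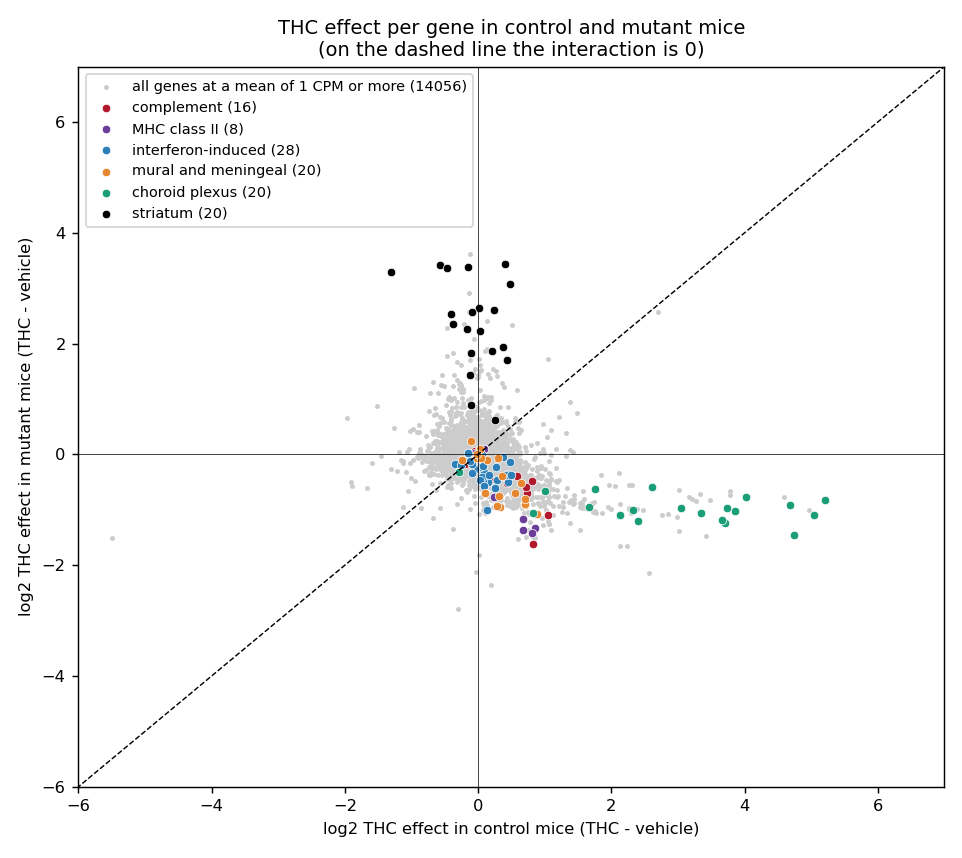
Each point is a gene; the x axis is its log2 THC effect in control mice and the y axis that in mutant mice, for the 14056 genes at a mean of 1 CPM or more, with 6 gene lists coloured. Choroid plexus genes lie far to the right, striatal genes high on the y axis, and complement and MHC class II genes mostly right of 0 and below 0.

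Another description asks for libraries that do not overlap. In 82 genes (0.519%) all 3 THC libraries lay above all 3 vehicle libraries in the control mice and below them in the mutant mice. The opposite arrangement, lower with THC in the control and higher in the mutant mice, held for 36 genes (0.228%). Non-overlap in the same direction in both genotypes held for 67 genes (0.424%) upward and 47 (0.297%) downward. Non-overlap does not imply a small p: Cdc123, 1 of the 36, had an unadjusted p of 0.14 in edgeR. Whether these opposite patterns differ in number from each other, or from what label order alone would give, was not tested.

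Most of the 12 negative genes with the smallest p-values had one shape, which a ranking by the interaction favours. In 10 of the 12, THC libraries lay above vehicle in the control and below vehicle in the mutant mice without overlap. Over all genes tested that held for 82 (0.519%). Control vehicle had the lowest group mean in 9 of the 12 and mutant vehicle the highest in 11. An exact permutation test of the difference of differences, with labels exchanged within each genotype (400 arrangements, 2-sided), gave its smallest possible p of 0.005 for 10 of the 12. Those genes were ranked on the same libraries, so neither the shared shape nor these p-values are further support.

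Cp encodes ceruloplasmin, a copper-carrying oxidase of iron that astrocytes make (chr3:19956933-20009750 in GRCm38.p6). It was at 23.5, 18.9 and 19.3 CPM in control vehicle, 27.9, 31.2 and 30.5 in control THC, 35.7, 31.1 and 35.2 in mutant vehicle and 29.7, 23.7 and 22.1 in mutant THC. The groups did not overlap within either genotype, and mutant THC overlapped control vehicle. The THC effect was 0.54 ± 0.12 (log2, SE) in the control and -0.44 ± 0.12 in the mutant mice, an interaction of -0.97 ± 0.17 (edgeR adjusted p = 0.48).

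Serping1 encodes the inhibitor of the first complement component (chr2:84765360-84775444). It was at 6.58, 6.53 and 6.25 CPM in control vehicle, 9, 10.8 and 12.4 in control THC, 13.7, 9 and 11.3 in mutant vehicle and 7.81, 7.99 and 5.27 in mutant THC. Control THC and mutant vehicle shared a range that the other 2 groups did not reach. The interaction was -1.43 ± 0.27 (adjusted p = 0.48).

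Emilin1, a glycoprotein of elastic fibres (chr5:30913387-30921279), was at 3.37, 3.57 and 2.95 CPM in control vehicle, 4.24, 4.04 and 4.15 in control THC, 6.83, 5.97 and 6.24 in mutant vehicle and 4.24, 3.10 and 2.50 in mutant THC. Mutant vehicle was above every other library, and the mutant side carried most of the difference, with THC effects of 0.33 in the control and -0.95 in the mutant mice. The interaction was -1.28 ± 0.24. Nid1, a linker protein of basement membranes, was at 8.74, 9.72 and 9.62 CPM in control vehicle, 12.3, 12.6 and 13.8 in control THC, 15.3, 13 and 14 in mutant vehicle and 12.7, 10.9 and 9.32 in mutant THC. Its groups did not overlap within either genotype, and its interaction was -0.83 ± 0.16.

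Cped1, a gene of little known function, was at 6.61, 6.26 and 6.05 CPM in control vehicle, 10.1, 11.9 and 13.3 in control THC, 15.1, 12.6 and 13.1 in mutant vehicle and 10.9, 6.31 and 5.14 in mutant THC. Mutant THC 1 was the highest of its group, and the interaction was -1.77 ± 0.32. Serpinb9, an inhibitor of the cytotoxic protease granzyme B, had an interaction of -0.74 ± 0.15, from 9.67 to 10.2 CPM in control vehicle, 11.7 to 12.5 in control THC, 12.4 to 16.6 in mutant vehicle and 11.5 or less in mutant THC. Slc35g1, a solute carrier, had one of -0.97 ± 0.18 and Cnmd, which encodes chondromodulin, one of -2.22 ± 0.45, both without overlap in either genotype. Ifitm1 and Zfp568 were the 2 of the 12 whose groups overlapped in 1 genotype. Ifitm1, an interferon-induced membrane protein, ranged from 1.45 to 1.78 CPM in control vehicle and 1.74 to 1.90 in control THC, which overlap, against 2.00 to 2.70 in mutant vehicle and 1.08 to 1.22 in mutant THC. For Zfp568, a zinc finger repressor, the mutant libraries overlapped, and its interaction was -0.62 ± 0.12.

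**Figure D2:**
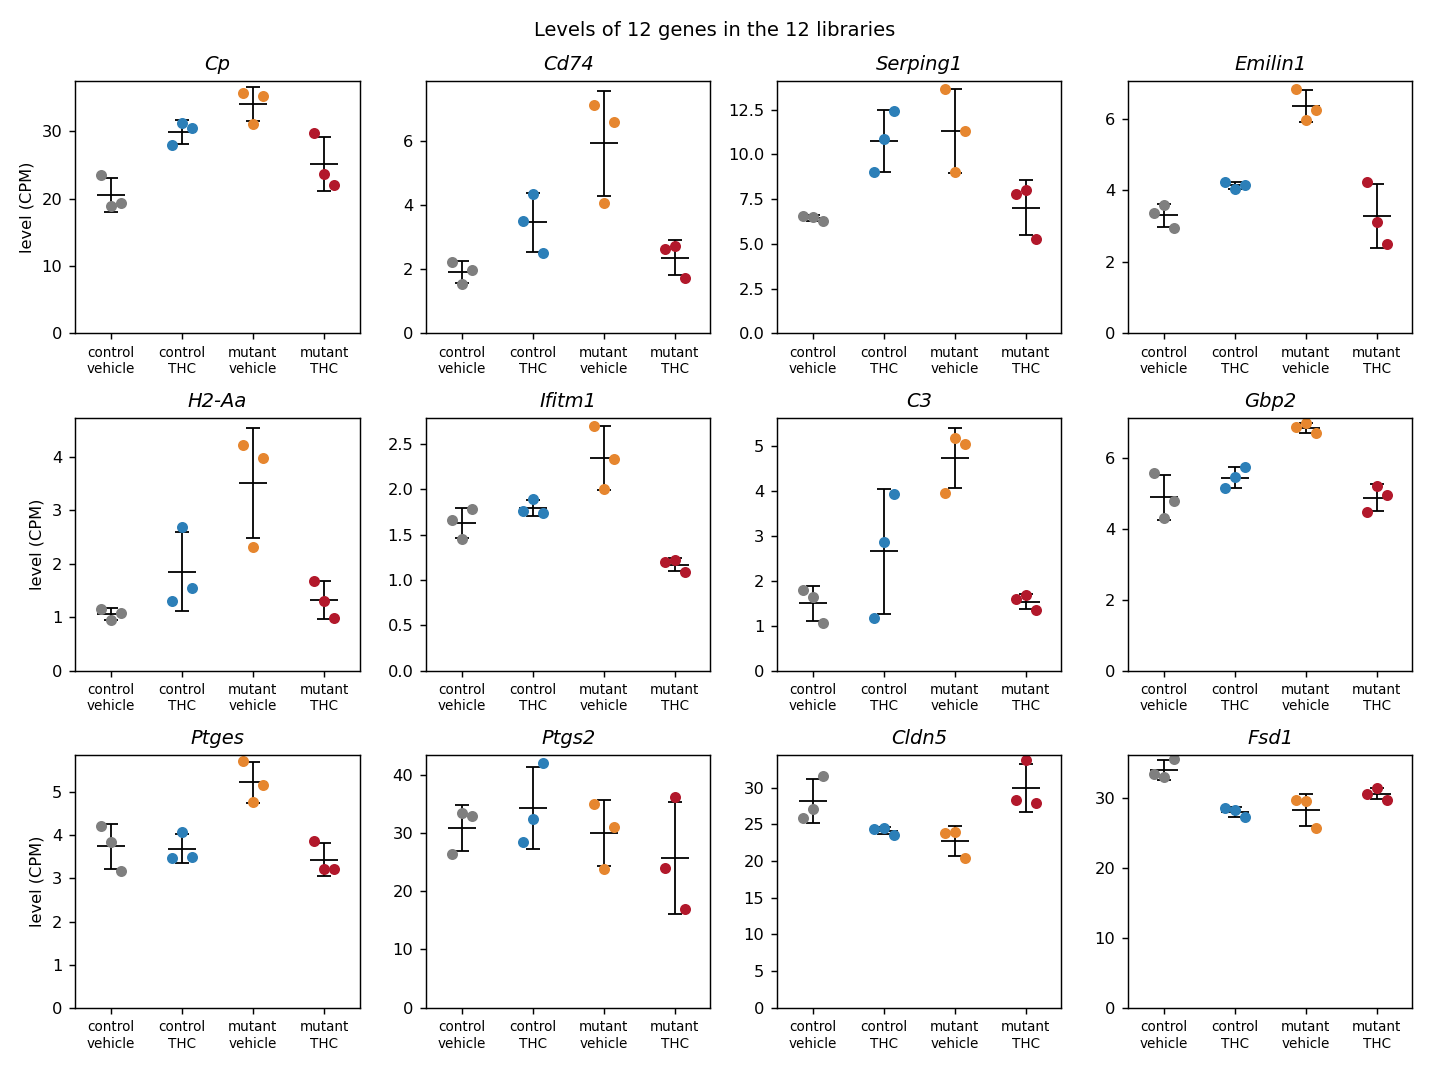
Levels of 12 genes in CPM (y axis, from 0) in the 4 groups; points are libraries, and the bar and whiskers are the mean and SD of 3 libraries. In Cp, Cd74, Serping1, Emilin1 and H2-Aa the control THC points lie above control vehicle and the mutant THC points below mutant vehicle, in Cldn5 the reverse.

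Complement genes were mostly on the negative side. Of 19 tested members of the list, 0 passed the test. An unadjusted p under 0.05 was found in 9 (47.4%), all negative, against 4.42% negative over all genes tested. The list median was -0.65 against 0.00 over all genes tested. C3, the central component of the cascade, was at 1.79, 1.64 and 1.06 CPM in control vehicle, 1.17, 2.86 and 3.92 in control THC, 3.96, 5.19 and 5.05 in mutant vehicle and 1.59, 1.68 and 1.34 in mutant THC. Control THC 1 was as low as the vehicle libraries, whereas the mutant groups did not overlap, and the interaction was -2.45 ± 0.51 (edgeR adjusted p = 0.48).

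The proteases of the first component, C1ra and C1s1, had interactions of -0.97 ± 0.30 and -1.29 ± 0.43, and C2 and C4b, of the next step, -2.14 ± 0.63 and -0.51 ± 0.19. C1qa, the recognition subunit made by microglia, stood at 0.06 ± 0.09, and the microglial list had 0 of 18 members at an unadjusted p under 0.05 and a median of 0.07, which ran from -0.008 without control vehicle 1 to 0.14 without control vehicle 3. Without mutant THC 1 the complement median was -1.01.

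MHC class II presents peptides to helper T cells. The 2 chains of its surface molecule pair with the invariant chain Cd74, and the master regulator Ciita drives all of them. Their promoters share conserved boxes, so the 250 bases upstream of the start are shown for 2 class II genes, with the Y box CTGATTGG in capitals in both and the cyclic AMP response element TGACGTCA in capitals in H2-Aa, where alone of the 2 it was found. The sequences are from RefSeq, GRCm38.p6, at chr17:34287824-34288073 on the minus strand and chr17:34305617-34305866 on the plus strand.
H2-Aa: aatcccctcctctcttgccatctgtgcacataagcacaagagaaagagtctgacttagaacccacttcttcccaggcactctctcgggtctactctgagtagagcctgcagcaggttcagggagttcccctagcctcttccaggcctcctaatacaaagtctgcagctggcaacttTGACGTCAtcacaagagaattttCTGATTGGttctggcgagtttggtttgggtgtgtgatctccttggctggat
H2-Eb1: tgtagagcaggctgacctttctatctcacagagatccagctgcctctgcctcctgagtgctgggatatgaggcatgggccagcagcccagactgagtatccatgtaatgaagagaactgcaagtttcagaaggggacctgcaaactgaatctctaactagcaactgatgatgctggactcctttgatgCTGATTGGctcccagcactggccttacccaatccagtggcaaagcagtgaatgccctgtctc

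The Y box, searched on both strands and chosen after the values were seen, was in 3 of 8 class II promoters with an entry (37.5%), against 5.49% of the 12348 tested genes with one. The cyclic AMP response element, also searched on both strands, was in 1 of the 8 (12.5%), against 2.62% of tested genes. A match is a description of the letters and not a bound site.

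Of 12 tested class II genes 0 passed the test, and the list median was -0.75. At an unadjusted p under 0.05 there were 6 (50%), all negative, against 4.42% negative over all genes tested. Cd74 was at 2.24, 1.56 and 1.99 CPM in control vehicle, 3.51, 4.37 and 2.52 in control THC, 7.14, 4.08 and 6.62 in mutant vehicle and 2.64, 2.73 and 1.73 in mutant THC. Its interaction was -2.18 ± 0.39, from a THC effect of 0.85 ± 0.28 in the control and -1.33 ± 0.27 in the mutant mice. H2-Aa, the alpha chain (chr17:34282744-34287823), was at 1.16, 0.94 and 1.09 CPM in control vehicle, 1.31, 2.69 and 1.54 in control THC, 4.23, 2.32 and 3.98 in mutant vehicle and 1.68, 1.31 and 0.98 in mutant THC. In both genes the groups did not overlap within a genotype, and the control THC and mutant THC libraries overlapped. The interaction was -2.21 ± 0.45 for H2-Aa, -2.05 ± 0.44 for H2-Ab1, -1.83 ± 0.39 for H2-Eb1 and -1.90 ± 0.79 for Ciita, which was under 0.40 CPM in every library. All 4 surface and invariant chain genes were under 8 CPM, where counting error is a larger share of the value. With a minimum of 1 CPM in 3 libraries the list median was -1.44.

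MHC class I, which most cells carry, showed the same sign at smaller size. Of 19 genes 0 passed, and the median was -0.32. At an unadjusted p under 0.05 there were 6 (31.6%), all negative, against 4.42% negative over all genes tested. H2-K1, a heavy chain, was at 24.1, 22.7 and 21.2 CPM in control vehicle, 24.3, 27.3 and 23.5 in control THC, 31.6, 27.5 and 30.2 in mutant vehicle and 26.1, 22.6 and 24.8 in mutant THC. Its control groups overlapped and its mutant groups did not, and the interaction was -0.42 ± 0.12. The shared light chain B2m had -0.32 ± 0.11.

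Interferon-induced genes answer to type I and type II interferons through promoter elements made of GAAA, 2 bases of any kind and GAAA again. The promoter of Gbp2, a guanylate-binding protein, is shown because its element lies close to the start. Its element, in capitals, reads as the reverse complement (chr3:142620413-142620662, plus strand).
Gbp2: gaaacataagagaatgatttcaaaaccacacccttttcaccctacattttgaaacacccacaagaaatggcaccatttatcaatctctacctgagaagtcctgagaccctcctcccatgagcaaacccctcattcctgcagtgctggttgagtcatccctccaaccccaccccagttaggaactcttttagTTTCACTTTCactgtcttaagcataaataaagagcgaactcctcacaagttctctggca

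The element was in 12 of 27 promoters of the list (44.4%), against 2.51% of tested genes with a promoter. The list was chosen as interferon-induced genes, so this share is no result on the interaction. Among the negative genes ranked first, 9 had a promoter entry and 1 of these (11.1%) held the element. Of 33 tested genes of the interferon list 0 passed, and the median was -0.46. At an unadjusted p under 0.05 there were 10 (30.3%), all negative, against 4.42% negative over all genes tested. Gbp2 was at 5.58, 4.33 and 4.81 CPM in control vehicle, 5.16, 5.48 and 5.75 in control THC, 6.88, 7 and 6.72 in mutant vehicle and 4.48, 5.23 and 4.96 in mutant THC. The mutant vehicle libraries lay above all 9 others, and the interaction was -0.64 ± 0.16 (edgeR adjusted p = 0.54). Trim30a, an inhibitor of inflammatory signalling, had -0.80 ± 0.23, Ifi35 -0.78 ± 0.25 and Oasl2 -0.74 ± 0.25.

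Astrocytes carry separate genes for their reactive state and for daily upkeep of synapses. Of 34 reactive astrocyte genes 0 passed, and the median was -0.42. At an unadjusted p under 0.05 there were 12 (35.3%), all negative, against 4.42% negative over all genes tested. Of 22 homeostatic astrocyte genes 0 had an unadjusted p under 0.05 and the median was 0.07, or 0.31 with the mural and meningeal score described below as a covariate and 0.008 without mutant THC 1. The reactive list holds Cp, Serping1 and Gbp2, which are described above. Vim, an intermediate filament gene that border cells also express, was at 48.8, 38.8 and 39.1 CPM in control vehicle, 48, 53.1 and 49.1 in control THC, 62.3, 54.3 and 66.7 in mutant vehicle and 49.7, 49.6 and 43.4 in mutant THC. Control THC 1 lay below the highest control vehicle library, and the interaction was -0.61 ± 0.15. Gfap, the filament gene that defines reactive astrocytes, was at 471, 443 and 414, then 384, 377 and 411, then 551, 484 and 463, then 469, 432 and 285 CPM in control vehicle, control THC, mutant vehicle and mutant THC. Its THC libraries were lower in control mice without overlap, unlike Cp, and its interaction was -0.16 ± 0.21 (edgeR adjusted p = 0.91), which was 0.03 without mutant THC 3 and 0.38 with the same covariate.

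The NF-kB and COX-2 genes named by the series title stood near 0 or on the negative side. Ptgs2 (chr1:150100031-150108234) was at 26.4, 33.4 and 32.9 CPM in control vehicle, 28.4, 32.3 and 42.0 in control THC, 34.9, 23.7 and 31.0 in mutant vehicle and 24.0, 36.1 and 17.0 in mutant THC. All 4 groups overlapped, and the interaction was -0.37 ± 0.36 (edgeR adjusted p = 0.86). An exact permutation test gave p = 0.31. Leaving out 1 library moved the interaction between -0.70, without mutant THC 2, and -0.15, without mutant THC 3.

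Ptges, which turns the COX product into prostaglandin E2 (chr2:30889471-30931020), was at 4.21, 3.84 and 3.18 CPM in control vehicle, 3.48, 4.08 and 3.5 in control THC, 5.72, 4.78 and 5.17 in mutant vehicle and 3.88, 3.21 and 3.23 in mutant THC. The mutant groups did not overlap and the control groups did, with THC effects of -0.60 and -0.02. The interaction was -0.58 ± 0.20 (unadjusted p = 0.014, adjusted p = 0.69 in edgeR). With the mural and meningeal score below as a covariate it was -0.21.

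Among the other prostaglandin genes, the constitutive synthase Ptgs1 stood at 0.10 ± 0.13. Ptgds, the prostaglandin D synthase of meninges and choroid plexus, was at 480, 361 and 349 CPM in control vehicle, 918, 431 and 571 in control THC, 1180, 491 and 522 in mutant vehicle and 531, 322 and 201 in mutant THC. It overlapped within each genotype, with an interaction of -1.74 ± 0.61, which was -0.036 with the mural and meningeal score as a covariate. The receptor genes went both ways, Ptgfr at -1.92 ± 0.70, Ptgdr at -1.49 ± 0.62, Ptger4 at -0.23 ± 0.31, Ptger2 at 0.75 ± 0.48 and Ptger3 at 0.47 ± 0.45. Of 23 genes of the list 0 passed. At an unadjusted p under 0.05 there were 5 (21.7%), all negative, against 4.42% negative over all genes tested. The list median was -0.30. Leaving out control THC 3 gave -0.19, and leaving out control THC 2 and mutant THC 3 together -0.18.

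NF-kB binds sites such as GGGA, 2 bases of any kind and TTCC, searched on both strands, which are in 1.17% of the promoters of tested genes and in 2 of 17 of its target list (11.8%), Csf1 and Cxcl10. Nfkbia, an inhibitor gene outside that list, also holds one. The target list was chosen for its link to NF-kB, so its share is no result on the interaction. Among the negative genes ranked first, 0 of 9 promoters held the site. The promoters of Csf1 and Nfkbia are shown, on the minus strand at chr3:107760470-107760719 and chr12:55492648-55492897, with the site in capitals as it reads on the strand given.
Csf1: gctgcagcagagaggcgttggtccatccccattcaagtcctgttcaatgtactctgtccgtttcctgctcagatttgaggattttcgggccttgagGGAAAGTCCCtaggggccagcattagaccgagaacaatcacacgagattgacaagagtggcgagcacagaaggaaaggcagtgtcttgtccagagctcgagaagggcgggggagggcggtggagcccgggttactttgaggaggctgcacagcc
Nfkbia: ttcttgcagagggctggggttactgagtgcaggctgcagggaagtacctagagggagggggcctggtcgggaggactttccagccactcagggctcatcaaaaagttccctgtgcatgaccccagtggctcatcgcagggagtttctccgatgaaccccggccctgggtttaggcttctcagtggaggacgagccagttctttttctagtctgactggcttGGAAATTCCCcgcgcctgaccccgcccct

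Csf1, the growth factor of microglia, was at 25.6, 24.1 and 23 CPM in control vehicle, 25.3, 26.7 and 28.3 in control THC, 25.7, 25.3 and 25.1 in mutant vehicle and 22.5, 23.8 and 18.9 in mutant THC. The mutant groups did not overlap, and the interaction was -0.37 ± 0.12. Nfkbia, the inhibitor that NF-kB induces against itself, was at 32.8, 27.2 and 28.3 CPM in control vehicle, 41.7, 37.3 and 37.2 in control THC, 34.3, 36.5 and 39.5 in mutant vehicle and 42.5, 32.2 and 40.2 in mutant THC. It was higher with THC in the control mice without overlap and overlapped in the mutant mice, and the interaction was -0.34 ± 0.15 (edgeR adjusted p = 0.76).

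The subunit gene Nfkb1 ranged from 22.8 to 25.3 CPM in control vehicle, 25 to 25.8 in control THC, 25.5 to 26.9 in mutant vehicle and 23.3 to 25.4 in mutant THC. Its interaction was -0.21 ± 0.08 (adjusted p = 0.73), while that of Rela, the main activating subunit, was -0.01 ± 0.10. Of 14 subunit and inhibitor genes 1 (7.14%) had an unadjusted p under 0.05, near the 6.59% of all genes tested. The median was -0.01. Of 21 target genes 0 passed, 5 had a negative value with an unadjusted p under 0.05 and 1, Il1a, a positive one (0.90 ± 0.29). The negative share was 23.8%, against 4.42% over all genes tested. The negative targets included Icam1, an adhesion molecule (-0.52 ± 0.20), Irf1, a transcription factor that interferon also induces (-0.57 ± 0.19), and Tlr2, a receptor of bacterial lipoproteins (-0.90 ± 0.30). The target list had a median of -0.33, and of -0.08 with the choroid plexus score as a covariate.

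Genes of the drug's receptor system and of the mutated scaffold showed little. Cnr1 (chr4:33923171-33948831) was at 336, 313 and 355 CPM in control vehicle, 337, 322 and 306 in control THC, 323, 326 and 328 in mutant vehicle and 346, 332 and 687 in mutant THC. The value of mutant THC 3, the library with striatal markers, stood apart from all others. The interaction was 0.54 ± 0.32, 0.11 without that library and -0.20 with the mural and meningeal score as a covariate. Napepld, an enzyme of anandamide synthesis, was the 1 of 13 endocannabinoid genes with an unadjusted p under 0.05 (-0.62 ± 0.27). That is 7.69% of the list, near the 6.59% of all genes tested, and the list median was 0.00. Disc1 ranged from 1.79 to 2.58 CPM in control vehicle, 2.42 to 2.58 in control THC, 2.36 to 2.78 in mutant vehicle and 1.42 to 3.04 in mutant THC, with an interaction of -0.32 ± 0.34, which ran from -0.60 without mutant THC 2 to -0.07 without mutant THC 3. Nothing in the sources used here says whether the mutant transgene adds to that row, so it is no check of the genotype. Srr, the serine racemase that binds DISC1, stood at 0.07 ± 0.10. For DISC1 partners 1 of 20 genes had an unadjusted p under 0.05, against 6.59% of all genes tested.

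Several glucocorticoid-responsive genes, which corticosterone switches on through Nr3c1, had their larger THC effect in the control mice. Of 24 genes 0 passed, and the median was -0.23. At an unadjusted p under 0.05 there were 7 (29.2%), all negative, against 4.42% negative over all genes tested. Sgk1, a kinase that controls ion transport, was at 98.7, 90.0 and 81.9 CPM in control vehicle, 191, 177 and 146 in control THC, 148, 173 and 215 in mutant vehicle and 214, 109 and 223 in mutant THC. Control THC lay above control vehicle without overlap, and the mutant groups overlapped, with THC effects of 0.92 and 0.03. The interaction was -0.90 ± 0.34 (edgeR adjusted p = 0.71). Ddit4, an inhibitor of growth signalling, ranged from 34.5 to 42.6 CPM in control vehicle, 52.6 to 57.1 in control THC, 46.5 to 52.0 in mutant vehicle and 51.6 to 57.5 in mutant THC, an interaction of -0.42 ± 0.12. Fkbp5, which damps the receptor, had -0.39 ± 0.16, and Nr3c1 itself 0.11 ± 0.09. Plin4, a lipid droplet protein, had the lowest value of those named, -1.72 ± 0.48.

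On the positive side, 7 of the 12 genes with the smallest p-values were lower with THC in the control and higher in the mutant mice without overlap. Over all genes tested that held for 36 (0.228%). A ranking by the interaction on the same libraries favours this pattern, so the 7 are no further support. Cldn5, the main tight junction protein of the blood-brain barrier (chr16:18776847-18778262), was at 25.9, 27.0 and 31.6 CPM in control vehicle, 24.3, 24.5 and 23.6 in control THC, 23.8, 23.9 and 20.4 in mutant vehicle and 28.3, 33.7 and 27.9 in mutant THC. Control vehicle and mutant THC shared the high range. The interaction was 0.62 ± 0.14 (edgeR adjusted p = 0.54), and Cldn5 was the 1 positive gene that DESeq2 called. The endothelial list was mixed: 6 of 18 genes had positive and 12 negative values, with a median of -0.10. Vwf, a clotting protein, had -0.89 ± 0.27, and the adhesion molecule Pecam1 0.12 ± 0.10. The list median was 0.03 with the choroid plexus score and 0.02 with the mural and meningeal score as a covariate, and -0.05 without control THC 1.

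Fsd1, a microtubule-associated protein (chr17:55986462-55996883), was at 33.5, 33.1 and 35.6 CPM in control vehicle, 28.6, 28.4 and 27.3 in control THC, 29.8, 29.6 and 25.7 in mutant vehicle and 30.6, 31.4 and 29.8 in mutant THC. Control vehicle was above all 9 other libraries, and the interaction was 0.39 ± 0.09 (edgeR adjusted p = 0.54). Ache, which breaks down acetylcholine, was at 38.2, 40.4 and 38.4 CPM in control vehicle, 33.1, 31.5 and 30.6 in control THC, 32.6, 33.5 and 29.1 in mutant vehicle and 32.0, 32.8 and 38.3 in mutant THC, an interaction of 0.41 ± 0.11. Its control groups did not overlap and its mutant groups did. Fat3, an atypical cadherin of neurons, ranged from 424 to 474 CPM in control vehicle, 358 to 383 in control THC, 386 to 429 in mutant vehicle and 431 to 524 in mutant THC, an interaction of 0.42 ± 0.12. The other positive genes ranked first ran from 0.29 ± 0.08 for Tomm40l, a mitochondrial import protein, to 1.26 ± 0.36 for Prrt4.

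Lists for neuronal firing, synapses and the clock had positive medians, with 2 or 3 genes each at an unadjusted p under 0.05, all positive. Over all genes tested, 2.16% were positive at that p and 6.59% had either sign. Immediate early genes, which neuronal firing induces, had 2 of 26 (Egr1 at 0.97 ± 0.35 and Arc at 0.45 ± 0.18) and a median of 0.26. Egr1 was at 29.9, 29.9 and 45.8 CPM in control vehicle, 26.7, 23.6 and 25.3 in control THC, 29.1, 33.2 and 23.9 in mutant vehicle and 27.8, 36.0 and 56.8 in mutant THC. Its highest value was in mutant THC 3 and its mutant groups overlapped. The interaction of Egr1 was 0.63 without mutant THC 3 and 0.098 with the mural and meningeal score as a covariate. Glutamate synapse genes had 3 of 31 (Gria4, Grm3 and Grm4) with a median of 0.13, which was -0.05 with the choroid plexus and -0.09 with the mural and meningeal score as a covariate. GABA and interneuron genes had 2 of 26 and a median of 0.17, and clock genes had 2 of 19 (Npas2 at 0.93 ± 0.40 and Arntl at 0.29 ± 0.13) and a median of 0.07. Npas2 was at 27.3 CPM in mutant THC 3 and at 7.74 to 14.4 in the other 11 libraries, and its interaction was 0.43 without that library. With the mural and meningeal score as a covariate, Npas2 was at 0.22, Arntl at 0.01 and the clock median at -0.11. Single libraries moved these medians by over 1.5 times: glutamate synapse genes to 0.03 without mutant THC 2 and 0.06 without mutant vehicle 3, GABA and interneuron genes to 0.09 without mutant THC 1 and 0.10 without control THC 3, and clock genes to 0.03 when mutant THC 3 or control vehicle 1 was left out, 0.12 for control vehicle 2 and 0.14 for control THC 1. Granule cell markers of the dentate gyrus had 0 of 16 at an unadjusted p under 0.05 and a median of -0.43, which was -0.14 without control THC 3, -0.25 without mutant THC 3 and -0.75 without mutant THC 2.

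**Figure D3:**
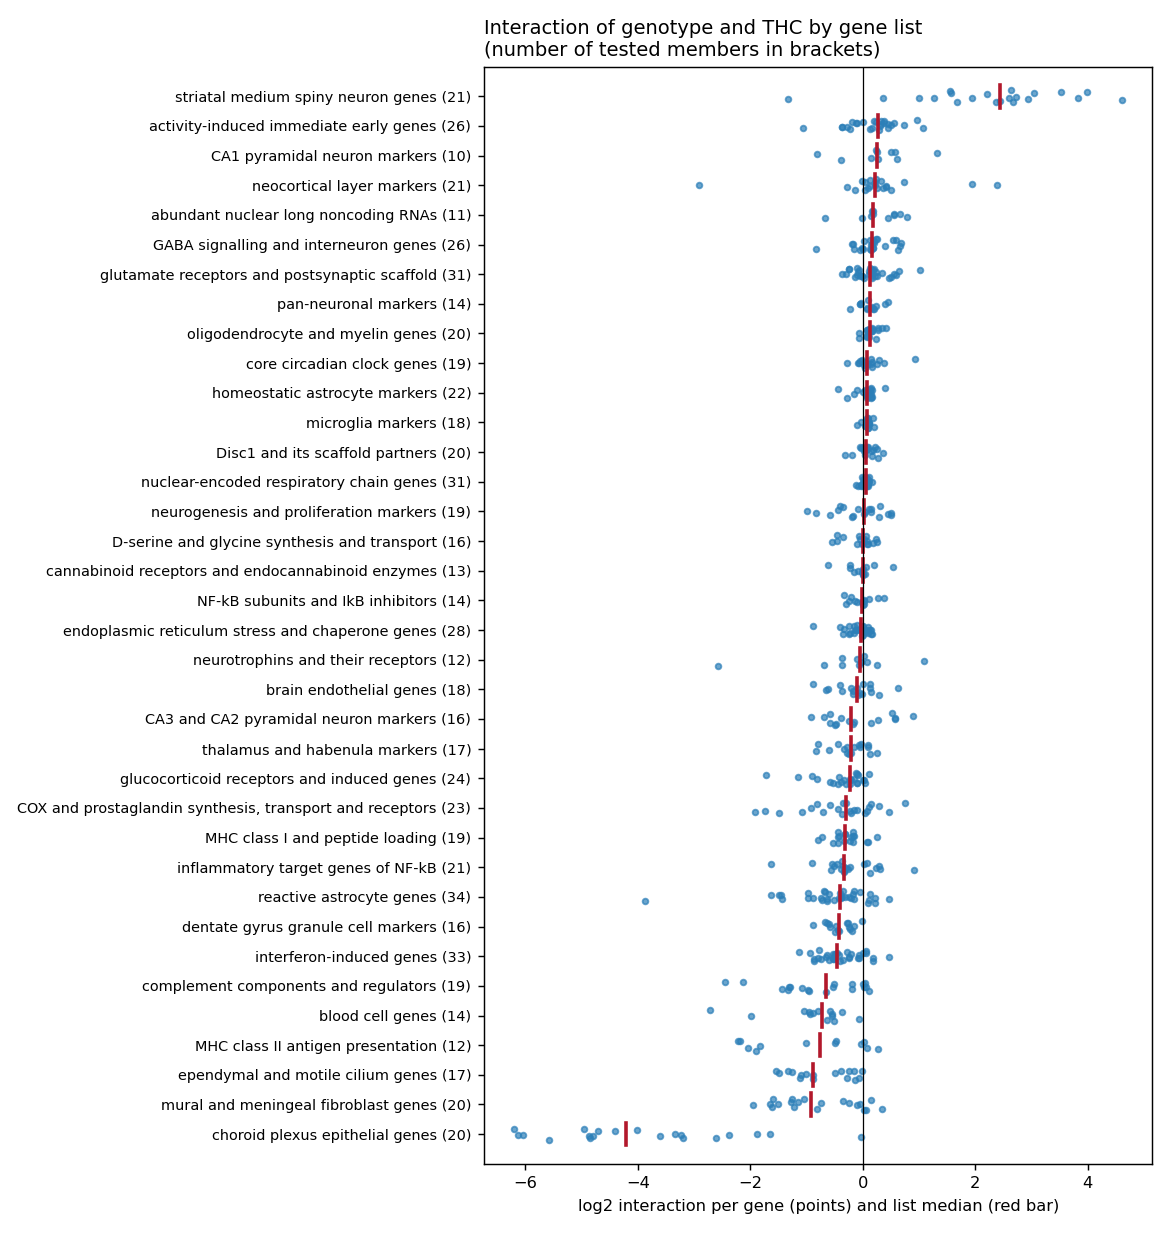
Log2 interaction (x axis) of each tested gene in the gene lists (rows), with the list median as a red bar. Choroid plexus genes reach the lowest values and striatal genes the highest, while complement, MHC class II, interferon-induced and reactive astrocyte medians lie between -0.75 and -0.42.

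Markers of border tissue moved in the same order as the negative genes. The mean log2 CPM of 20 mural and meningeal genes was 3.95, 3.80 and 3.91 in control vehicle, 4.27, 4.28 and 4.04 in control THC, 4.59, 4.37 and 4.38 in mutant vehicle and 4.35, 3.85 and 3.65 in mutant THC. The groups did not overlap within either genotype. Of these genes 0 passed, and the median was -0.93, or -0.57 without mutant vehicle 1. At an unadjusted p under 0.05 there were 7 (35%), all negative, against 4.42% negative over all genes tested. Col1a2, a fibrillar collagen of meningeal fibroblasts, was at 30.8, 29.5 and 26.5 CPM in control vehicle, 44.1, 44.9 and 52.1 in control THC, 77.4, 40.9 and 42.0 in mutant vehicle and 39.7, 26.6 and 19.2 in mutant THC. Its interaction was -1.61 ± 0.40 without overlap in either genotype.

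With that score as a covariate, added after the data were seen, 10 of the 12 negative genes ranked first were nearer 0, all with the same sign, and Cnmd and Zfp568 were farther from it. Cp was then at -0.54, Cd74 at -1.24, H2-Aa at -1.21, Serping1 at -1.03 and Emilin1, itself a member of the score, at -0.64. The medians were -0.36 for complement, -0.46 for MHC class II, -0.09 for MHC class I, -0.19 for interferon-induced and -0.34 for reactive astrocyte genes, and -0.09 for NF-kB targets and -0.08 for prostaglandin genes. Immediate early genes had a median of 0.06. Of the positive genes ranked first, Fat3 was at 0.17, Ache at 0.24 and Prrt4 at 0.54. At an unadjusted p under 0.05 there were then 342 negative and 683 positive genes, so the side with more genes turned. The score itself followed the group order of the negative genes, but the fit also holds the 4 group means. A gene therefore moves by how it varies with the score among libraries of the same group, and not by sharing that order. Cnmd moved from -2.22 to -2.92. Each group has only 3 libraries for this. What part border cells have in the values, before or after the covariate, was not tested.

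**Figure D4:**
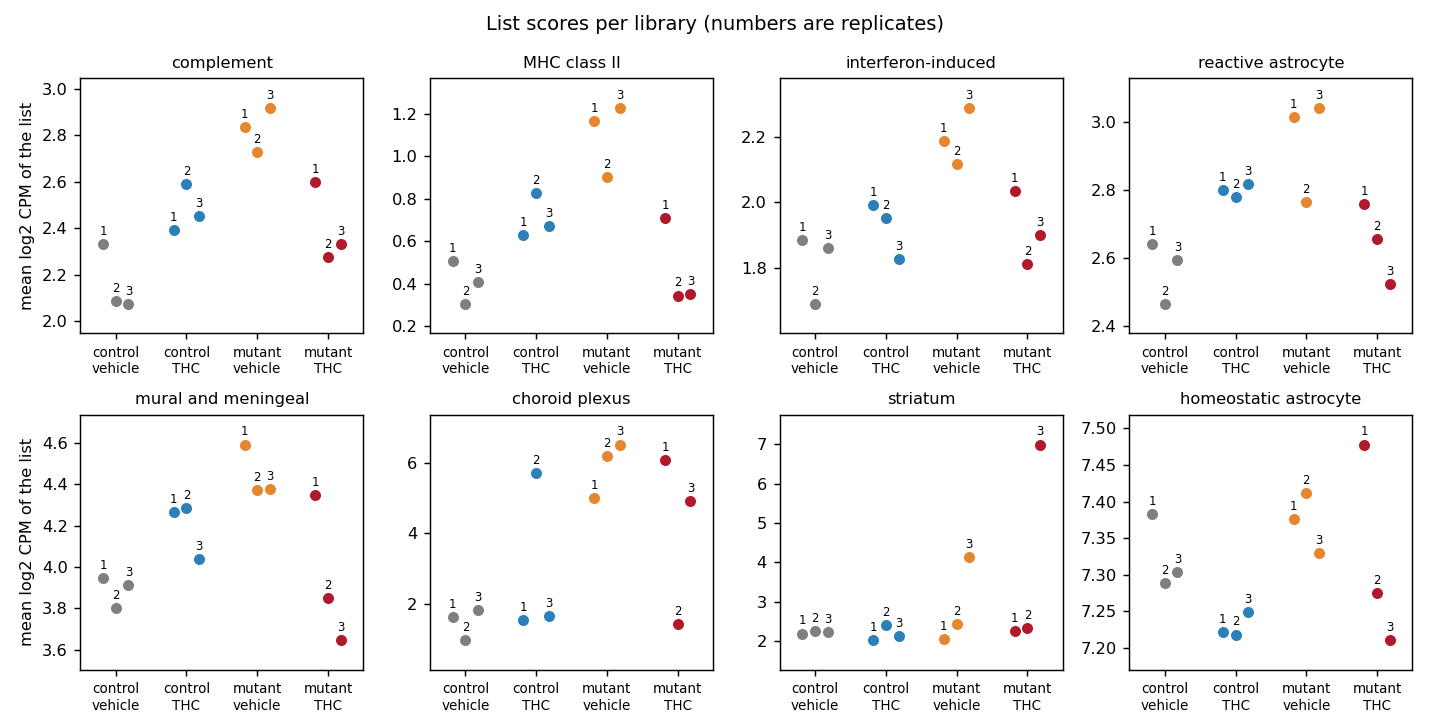
Mean log2 CPM of 8 gene lists (y axis, a different range in each panel) in the 4 groups, with each point a library numbered by replicate. The mural and meningeal score repeats the order of the complement and MHC class II scores, while the choroid plexus score is high in control THC 2, the 3 mutant vehicle libraries, mutant THC 1 and mutant THC 3.

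Choroid plexus genes had the lowest median, -4.21, and it rested on single libraries. At an unadjusted p under 0.05 there were 9 of 20 (45%), all negative, against 4.42% negative over all genes tested. The score was 1.62, 0.95 and 1.81 in control vehicle, 1.52, 5.72 and 1.65 in control THC, 5.01, 6.20 and 6.53 in mutant vehicle and 6.10, 1.43 and 4.92 in mutant THC. Control THC 2 alone held the high value of its group, and without it the median was -1.03. With this score as a covariate, Cp was at -0.87, Cd74 at -2.06, Serping1 at -1.53, H2-Aa at -1.80 and Cldn5 at 0.53, and the medians were -0.55 for complement, -0.25 for interferon-induced and -0.20 for MHC class I genes. Striatal genes had the highest median, 2.43, with 0 of 21 at an unadjusted p under 0.05, and it was -0.83 without mutant THC 3. All 14 blood cell genes had negative values, and 3 (21.4%) had an unadjusted p under 0.05. Their median was -0.72, or -0.49 without mutant vehicle 3 and -1.07 without mutant THC 1. All 17 ependymal genes were negative too, with 0 at that p and a median of -0.88. That median was -0.31 without control THC 2 and 0.07 with the choroid plexus score as a covariate.

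**Figure D5:**
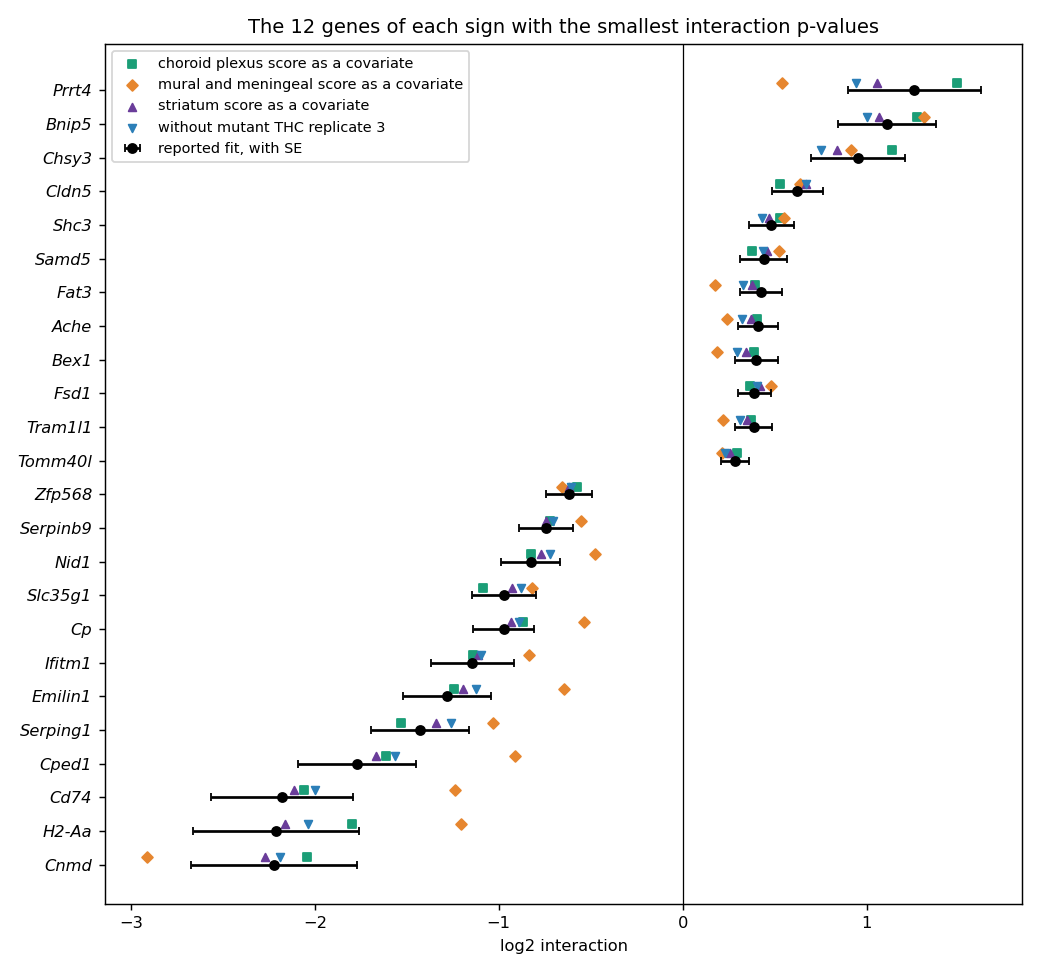
Log2 interaction (x axis) of the 12 genes of each sign with the smallest p-values; black points and whiskers are the reported fit with its SE, coloured symbols the fit with a marker score as a covariate or without mutant THC 3. All 24 genes stay on their side of 0, which their ranking on the same libraries favours. The mural and meningeal score moves most of the negative ones toward 0, Emilin1 from -1.28 to -0.64.

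Across the 15802 tested genes, the THC effects in the control and in the mutant mice had a Pearson correlation of -0.30. Without control THC 2 and mutant THC 3 it was 0.08 over 15889 genes. Genes are not independent replicates, and the 2 effects share the tissue markers described above, so this is a description with no test.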

How the data were processed

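The values are unscaled expected counts in 1 table that the authors deposited, from hippocampal total RNA depleted of ribosomal RNA and read as paired ends of 100 bases, per the labels' protocols. Bowtie2 2.2.2, RSEM 1.2.21, edgeR 3.10.2, CASAVA 1.8.4, FastQC and the build mm10 are named, without roles, in the submitters' processing notes, and the file header shows RSEM output on RefSeq transcripts. Strand use was not found in the sources used here. RSEM shares reads between near-identical genes such as MHC genes, which are therefore uncertain. RefSeq (GRCm38.p6) named 23007 rows and GENCODE 133; 235 had no symbol. All columns matched a sample.

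Counts were rounded, filtered with filterByExpr, scaled by TMM and tested with edgeR 4.0.16 (R 4.3.3; glmQLFit, robust, 4 group means, 8 residual degrees of freedom) with Benjamini-Hochberg adjustment over all genes. SEs come from the F statistic. DESeq2 1.42.0 and limma 3.58.1 were alternatives. The test was checked on simulated data. No 2 libraries were repeats (lowest median chi-square per gene 1.73 over 66 pairs, 0.455 for repeats). Named genes are the 12 of each sign with the smallest p at a mean of at least 1 CPM (none passed the threshold), 9 genes of the study's question and, of each list, the 2 tested members with the smallest p; other list members are named for their role in the pathway and were chosen after their values were seen. Members and lists were chosen with earlier results of these data known. Promoters are the 250 bases before a start. Scores average the log2 CPM over the members of a list. Some list members are not reported here.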

Additional observations from a re-analysis of the deposited data

Results flagged for a closer look

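In 82 of 15802 genes (0.519%) the THC libraries lay above all vehicle libraries in the control mice and below all in the mutant mice. In 36 genes (0.228%) they lay below in the control and above in the mutant mice. Both opposite sets were picked out because the THC libraries of one genotype lay opposite to those of the other. How many genes the order of labels alone would place in either set was not tested. For neither set was the difference itself past the threshold in edgeR, which called 0 genes for interaction. Non-overlap in the same direction in both genotypes was of similar number, with 67 genes (0.424%) upward and 47 (0.297%) downward.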

How the results depend on the processing

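No paired analysis was possible because the numbers in the labels do not recur between groups. For the interaction, edgeR called 0 genes with every scaling, filter and covariate tried and limma-voom called 0, while DESeq2 called 34. DESeq2 called 12 genes for THC in control and 3 in mutant mice. Leaving out each library in turn gave 0 to 10 genes for the interaction, 0 for THC in control and 0 to 3 for THC in mutant mice. The highest counts, 10 and 3, came without mutant THC 1; the cause was not tested. Without control THC 2 and mutant THC 3 together, THC in control mice called 1 gene. Negative genes at an unadjusted p under 0.05 were 342 with the mural and meningeal score as a covariate, 422 without those 2 libraries and 491 to 1180 leaving out 1 library. Positive ones were 659 with library number as a covariate, 683 with the mural and meningeal score and 211 to 661 leaving out 1 library.

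Over 93 named genes and 25 settings, 2300 of 2324 values kept their sign, including all values of the 24 genes ranked first. Those genes and most of the others were picked by their p on these same libraries, so the kept signs are no further support. The 24 values that changed sign belong to 10 genes. With the mural and meningeal score Srr was at -0.13, Cnr1 at -0.20, Gfap at 0.38, Gjb6 at 0.12, Ngfr at 0.45, Gpr6 at -3.95, Rxrg at -3.16, Lamp5 at -0.15 and Calb2 at 0.12. With the choroid plexus score Srr was at -0.0495, Ngfr at 0.14 and Rela at 0.0428. Leaving out 1 library gave -0.30 to 0.027 for Gfap, -0.83 to 6.25 for Gpr6 and -0.53 to 5.37 for Rxrg, each changing sign without mutant THC 3 alone, and -0.0502 to 0.0209 for Rela. Without control THC 2 and mutant THC 3 together Gfap was at 0.00328, Gpr6 at -0.67 and Rxrg at -0.74. Rela was at 0.00401 with no filter and 0.0284 with library number as a covariate. Counting error is a larger share of the value in genes of a few CPM, among them Cd74, H2-Aa, Ifitm1, Cnmd, C3 and Disc1.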
